A study of Mus musculus with 12 samples.

Results

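Gene expression was compared between diabetic and normal BALB/c mice in RNA from tissue labelled as muscle. Both groups had received 2.5 nmol mcIRBP, a protein of the bitter melon plant, Momordica charantia, that binds the insulin receptor. The comparison took every array of the diabetic mcIRBP group and every array of the normal mcIRBP group, 6 of the 12 arrays of the study with 3 in each group, and every probe with a gene symbol, 21020 of 29922 probes for 16675 genes. The other 6 arrays were diabetic mock and normal mock mice, labelled untreated, again with 3 arrays each. Both normal groups were labelled female and both diabetic groups male, so disease state and sex cannot be told apart in these data. The sources used here give neither the age of the mice, nor how diabetes was produced, nor the interval after mcIRBP, nor which muscle was taken. Nothing in the labels ties the arrays of a group to separate mice. The p-values thus rest on the spread between arrays, which may be technical. That spread was pooled over all 12 arrays, the mock arrays included.

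For each array 5 μg of total RNA was amplified and labelled with Cy5, and the raw intensities of all 12 arrays were normalized together. Levels are log2 intensities, and "normal" and "diabetic" arrays below are those of the 2 mcIRBP groups, in the order of replicates 1, 2 and 3, unless mock is named. A gene was called higher or lower where limma's moderated test gave an adjusted p under 0.05 over all probes. The fold is the ratio of the group means. A probe lay above the floor of an array where its raw intensity exceeded the most frequent intensity of the array by 5 SD, with the SD taken from the values under that peak and their mirror image. Where no array of 1 group lay above the floor, the fold is given as "at least" the ratio to the dimmest level above it. Of the 29922 probes, 7431, 8248 and 5660 lay above the floor on the normal arrays and 8080, 7985 and 4302 on the diabetic arrays. No difference in this number was detected between the groups (exact permutation test, two-sided, p = 0.8, where 6 arrays allow no p below 0.1). Pearson's r across probes averaged 0.879 among the normal arrays, 0.95 among the diabetic arrays and 0.744 between the groups. Normal replicate 2 stood apart, at 0.845 and 0.855 with normal replicates 1 and 3, which correlated at 0.937. The normal mcIRBP arrays averaged 0.902 with the diabetic mock arrays, above their value among themselves. Diabetic replicate 3 had the fewest probes above the floor of the 6 arrays.

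Of the 21020 probes, 1445 (6.87%) were called higher in diabetic mcIRBP mice and 1469 (6.99%) lower, together 13.9%. Per gene, with 1 probe each, 1318 (7.9%) were higher and 1251 (7.5%) lower. The counts of called list genes below are to be read beside these shares unless others are named. The median log2 fold change over all genes was -0.01. The large changes were unevenly split, since 46 called probes were more than 16-fold higher and 2 were more than 16-fold lower by their fitted values. For 34.4% of the probes all arrays of 1 group lay on the same side of all arrays of the other. With median scaling in place of quantile normalization the calls were 895 higher and 236 lower, so that 79.1% of the calls were higher against 49.6% in the main setting. A total of 284 called probes lay below the floor on all 6 arrays.

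A few tissues supply the background of the genes that moved most. The epididymis is the male duct in which sperm mature, and its epithelium secretes region-specific beta-defensins, lipocalins and protease inhibitors, many of them under androgen control. White adipocytes store triglyceride in droplets coated by perilipin and CIDE proteins, and they secrete adiponectin and leptin. The exocrine pancreas makes digestive enzymes. In skeletal muscle, insulin acts through its receptor, IRS proteins and Akt to bring the transporter Slc2a4 to the cell surface.

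All but 2 of the 15 largest rises (9230104L09Rik and BC048679) were members of the epididymal lists, and the 15 largest falls were led by genes of the adipocyte and its lipid droplet. The promoter windows of 4 of these genes are shown here because the genes stand at the ends of the comparison. Defb20 (beta-defensin 20) had the largest rise, Lcn8 (a lipocalin) was the most raised gene with signal in the normal group, Adipoq (adiponectin) defines the adipocyte, and Pck1 (cytosolic phosphoenolpyruvate carboxykinase) had the largest fall among the genes with a single window. Each sequence is the 250 bases before the annotated start in RefSeq on GRCm38.p6, + strand, written 5′ to 3′. The positions are chr2:152476813-152477062 for Defb20, chr2:25652868-25653117 for Lcn8, chr16:23146286-23146535 for Adipoq and chr2:173152823-173153072 for Pck1. Capitals mark the motifs CCAAT (or ATTGG, its reverse complement) and CGTCA.
Defb20: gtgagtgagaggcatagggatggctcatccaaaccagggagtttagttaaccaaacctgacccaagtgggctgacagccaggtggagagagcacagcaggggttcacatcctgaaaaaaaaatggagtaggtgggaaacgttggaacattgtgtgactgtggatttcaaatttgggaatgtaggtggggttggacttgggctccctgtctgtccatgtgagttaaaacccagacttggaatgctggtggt
Lcn8: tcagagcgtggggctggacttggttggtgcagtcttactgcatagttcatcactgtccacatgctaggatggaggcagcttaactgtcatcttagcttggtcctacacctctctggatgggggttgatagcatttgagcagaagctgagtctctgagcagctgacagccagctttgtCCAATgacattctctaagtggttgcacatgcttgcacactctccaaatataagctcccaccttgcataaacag
Adipoq: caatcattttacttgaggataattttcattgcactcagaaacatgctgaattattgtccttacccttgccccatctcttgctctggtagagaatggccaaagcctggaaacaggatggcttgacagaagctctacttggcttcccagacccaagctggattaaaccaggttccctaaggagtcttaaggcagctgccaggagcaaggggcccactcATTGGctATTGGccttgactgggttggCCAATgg
Pck1: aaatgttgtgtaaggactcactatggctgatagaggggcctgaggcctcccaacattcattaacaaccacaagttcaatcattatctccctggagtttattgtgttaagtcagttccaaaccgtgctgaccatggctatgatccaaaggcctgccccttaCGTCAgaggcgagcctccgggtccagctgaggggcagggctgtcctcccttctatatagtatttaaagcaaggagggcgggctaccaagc

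The window of Lcn8 held 1 CCAAT, 73 bases before the start, and that of Adipoq held 3, at 7, 27 and 34 bases. Pck1 had 1 CGTCA, the core of the cAMP response element, 90 bases before the start, and Defb20 had none of the 5 motifs searched. The letters TGTTCT (steroid receptor half-site), AGGTCA (nuclear receptor half-site) and TATAAA were in none of the 4 windows. Both strands were searched, overlapping matches were kept, and CCAAT and CGTCA were added after the windows had been read. Among 32851 RefSeq windows of this kind, 33.8% held CCAAT, 17.8% CGTCA, 16.1% TGTTCT, 14% AGGTCA and 12.4% TATAAA. Of the 15 largest rises 12 had a window, and the counts among them were 6, 1, 3, 0 and 1, in the same order. Of the 15 largest falls 11 had a window, and the counts were 5, 4, 2, 0 and 4. A gene was counted where any of its windows held the motif, so these counts and the shares per window are unlike measures. These are matches of letters and not sites of binding.

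Beta-defensins, small cationic peptides of epithelial defence that also coat sperm, were higher in 16 of 21 measured genes, beside 7.9% of all genes, and none was lower. Defb20 read 5.80, 5.86 and 5.89 on the normal arrays and 14.01, 13.91 and 13.91 on the diabetic arrays, at least 199-fold higher (adjusted p = 1.06e-11). Defb12 read 5.77, 5.90 and 5.80 against 12.06, 12.06 and 12.24, at least 56.2-fold higher (adjusted p = 2.6e-12). Spag11, a sperm-binding protein related to the defensins, read 5.75, 5.90 and 5.83 against 12.75, 12.29 and 12.41, at least 72.5-fold higher (adjusted p = 5.78e-11). All 3 were below the floor on every normal array and far above it on every diabetic array.

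The other raised defensins spanned a wide range. Defb21 and Defb39 were at least 12.1-fold and 10.8-fold higher, Defb38 and Defb2 at least 8.79-fold and 8.67-fold, and Defb11 and Defb15 at least 6.8-fold and 6.44-fold. Smaller bounds were found for Defb40 (4.95), Defb29 (4.49), Defb37 (4.27) and Defb30 (3.72). Defb10 (1.79), Defb13 (1.44) and Defb19 (1.24) had the smallest bounds. The 5 members without a call were Defb9, with 6.45, 6.46 and 5.86 on the diabetic arrays (adjusted p = 0.0514), and Defb14, Defb50, Defb1 and Defb36, whose groups overlapped. Defb1, the member most widely made by epithelia outside the epididymis, lay below the floor on all 6 arrays. The call of Defb30 was lost in the fit of the 6 arrays alone (adjusted p = 0.0948) and under median scaling (0.0623). Beta-defensins are paralogs, and whether each probe tells them apart was not tested.

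Lipocalins, carriers of small lipophilic molecules, were higher in 9 of 11 measured genes, with a median log2 fold change of 4.43 beside -0.01 over all genes. Lcn5, the epididymal retinoic acid-binding protein, read 5.82, 5.94 and 5.80 against 13.02, 13.22 and 13.02, at least 110-fold higher (adjusted p = 3.19e-12). Lcn8 read 5.99, 6.74 and 6.59 against 13.55, 13.45 and 13.69, a 140-fold difference (log2 fold change 7.13, SE 0.16, adjusted p = 1.14e-09). Normal replicates 2 and 3 lay above the floor for Lcn8, so its fold is an estimate and not a bound. Lcn9, Lcn10, Lcn12 and Lcn6 were at least 35.1-fold, 24.9-fold, 17.9-fold and 7.21-fold higher. Ptgds, the prostaglandin D synthase of the family, was 25-fold higher, and Lcn13 (now Obp2a) was 3.11-fold higher.

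Lcn2, the family member that binds bacterial siderophores and is made by fat, neutrophils and many epithelia, differed in pattern from the epididymal lipocalins. It was well above the floor on the normal arrays, at 9.24, 7.85 and 9.78, and read 11.48, 11.52 and 11.28 on the diabetic arrays (5.56-fold, adjusted p = 0.00225). It was also called higher in diabetic mock against normal mock mice, by 2.13 on the log2 scale (adjusted p = 0.00833), and the difference between those effects was 0.35 (adjusted p = 0.759). The rise in mock mice was shared, since 5 of the 11 lipocalins were called higher there, beside 6.01% of all genes. Lcn5 was higher by 2.37 and Lcn8 by 2.49. Their differences were larger, at 4.86 (adjusted p = 1.76e-09) and 4.64 (adjusted p = 4.72e-07). Under mcIRBP, Lcn3 (adjusted p = 0.102) and Lcn4 (0.553) were not called.

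Protease inhibitors of the epididymis were higher in 14 of 19 measured genes, with a median log2 fold change of 3.69. Spint4, a Kunitz-type inhibitor, read 5.68, 5.86 and 5.80 against 11.91, 11.82 and 12.15, at least 50.4-fold higher (adjusted p = 1.88e-11). The serpin Serpina1f read 5.85, 5.79 and 5.75 against 11.26, 11.27 and 11.26, at least 31.1-fold higher (adjusted p = 4.77e-11). Its 3 diabetic arrays lay within 0.01 of each other. The cystatin Cst12 was at least 43.7-fold higher and the Kazal-type inhibitors Spink8 and Spink2 at least 78.6-fold and 23.5-fold.

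Among 34 other epididymal genes, 26 were higher and 1 lower. Gpx5, a glutathione peroxidase secreted onto sperm, read 5.80, 5.84 and 5.71 against 13.22, 13.62 and 13.07, at least 128-fold higher (adjusted p = 5.66e-10). The amino acid transporter Slc38a5 read 5.80, 5.71 and 5.80 against 12.56, 12.59 and 12.50, at least 75.7-fold higher (adjusted p = 1.41e-12). Rnase9, a ribonuclease-like protein of the epididymis, and the carboxylesterase Ces7 (now Ces5a) were at least 63.6-fold and 34.9-fold higher. The member that was lower was Me1, malic enzyme, which adipocytes also use to supply NADPH for lipid synthesis (4.45-fold, adjusted p = 0.000169). Among the 15 largest rises, 9230104L09Rik (now Cstdc2, with a cystatin domain) and BC048679 were at least 161-fold and 42.1-fold higher.

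**Figure D1:**
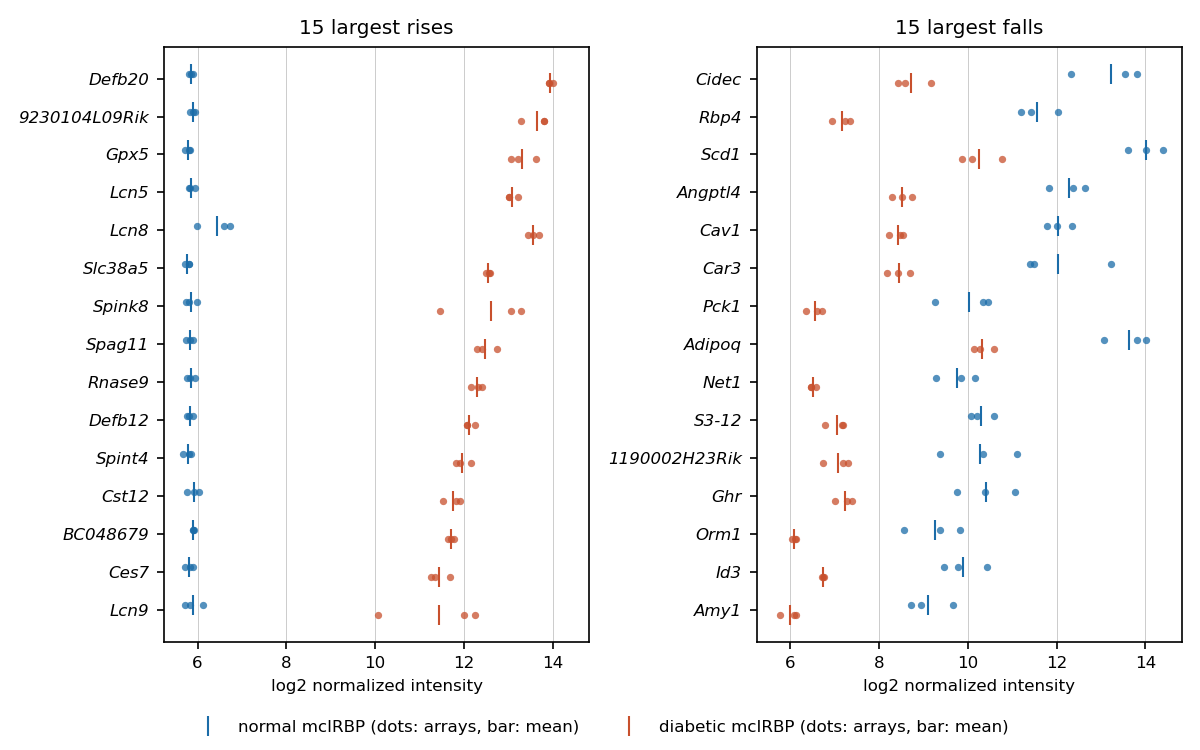
Log2 normalized intensity of the 15 genes with the largest rise (left) and the 15 with the largest fall (right) in diabetic mcIRBP against normal mcIRBP mice, with a dot for each of the 3 arrays of a group and a bar for the mean. Defb20 stood near 5.85 on the normal arrays and 13.94 on the diabetic arrays, Cidec near 13.23 and 8.73, and the groups did not overlap for any gene shown, as the choice of genes required.

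Over the 4 epididymal lists together, 65 of 85 measured genes were higher, 1 was lower and 19 were not called. Like the other lists, they were chosen with earlier results of these data known, so the counts describe the genes and are no independent test. Of the 65, 61 lay above the floor on all 3 diabetic arrays and 57 lay below it on all 3 normal arrays. The median log2 fold change over the 85 genes was 3.14, or 2.63 with genes below the floor set to their bound. Without diabetic replicate 3 the counts of higher genes were 17 defensins, 9 lipocalins, 14 inhibitors and 29 others.

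Diabetic replicate 3 stood apart within this group of genes. Among the 65 raised genes, 13 had a range over 1 log2 unit among the diabetic arrays, and all 13 were lowest on replicate 3. Crisp1, a cysteine-rich secretory protein of sperm, read 10.40, 10.21 and 7.77, the largest range at 2.63. Cuzd1 read 11.58, 11.76 and 9.21, Defb30 8.85, 8.97 and 6.78, and Lcn9 12.01, 12.24 and 10.07. Crisp1 and Cuzd1 are named here after their values were seen. The fall was not shared by all epididymal genes, since 37 of the 65 varied by less than 0.5 and 18 were highest on replicate 3. Lcn10 read 10.75, 10.65 and 11.42, and Clu 12.87, 12.65 and 13.40. Without replicate 3 the fitted log2 fold change moved from 6.76 to 7.38 for Spink8, from 5.55 to 6.28 for Lcn9, from 3.37 to 4.04 for Lcn6, from 2.77 to 3.41 for Defb40 and from 2.32 to 3.10 for Defb30. Replicates 1 and 2 differed by a median of 0.10 over the 65 genes. Whether the lower number of probes above the floor on replicate 3 had a part in this pattern was not tested.

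**Figure D2:**
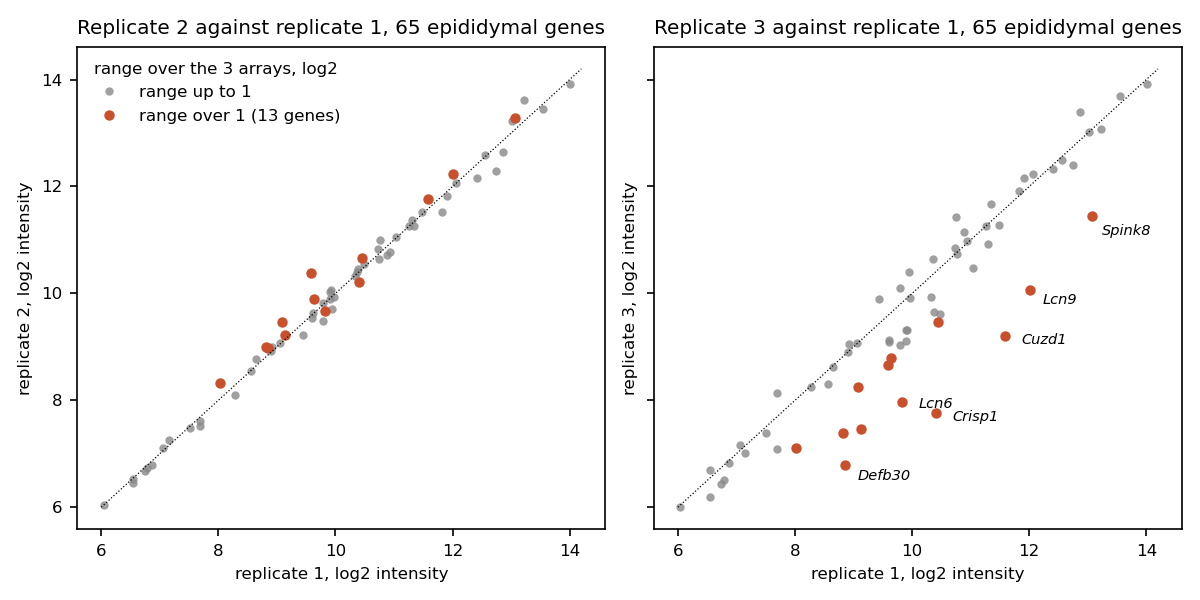
Log2 intensity of the 65 raised epididymal genes on diabetic mcIRBP replicate 2 (left) and replicate 3 (right) against replicate 1, with the 13 genes whose range over the 3 arrays exceeded 1 log2 unit in colour and the line of equality dotted. The coloured genes lie near the line for replicate 2 and below it for replicate 3, as for Crisp1 at 10.40, 10.21 and 7.77, while the other genes stay within 1 log2 unit of it in both.

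Genes of sperm formation were higher in 12 of 25 cases and lower in none. Prm1, a protamine that packs sperm DNA, read 5.82, 5.86 and 5.71 against 9.85, 9.72 and 9.89, at least 11.5-fold higher (adjusted p = 1.09e-10). Prm2, the second protamine gene, was at least 6.21-fold higher, and Odf1 of the sperm tail and Tnp2, a transition protein, at least 2.2-fold and 2.18-fold. The median of the list was 0.17, and 13 of the 25 genes lay below the floor on all 6 arrays. Markers of seminal vesicle and prostate gave a different picture, since 0 of 16 were called in either direction and 12 lay below the floor on all 6 arrays. Srd5a2, which converts testosterone to dihydrotestosterone, read 5.82, 5.77 and 5.71 against 7.26, 7.33 and 7.20, at least 1.94-fold higher (adjusted p = 3.27e-08).

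Pancreatic enzyme genes were also raised, with 17 of 21 listed genes higher and a median log2 fold change of 2.39. Prss2, a trypsinogen, read 5.75, 5.82 and 5.75 against 10.13, 9.99 and 10.44, at least 14.8-fold higher (adjusted p = 3.42e-09). Pnlip, pancreatic lipase, read 6.04, 5.75 and 5.75 against 9.94, 9.96 and 10.30, at least 13.6-fold higher (adjusted p = 9.76e-09). The lipase-related Pnliprp1 and the carboxypeptidase Cpa1 were at least 13.3-fold and 3.93-fold higher. For these genes diabetic replicate 3 was not low, and the mean of the list was 8.16, 8.13 and 8.20 on the diabetic arrays against 5.93, 5.89 and 5.86 on the normal arrays. The hormone genes Ins2, Gcg and Sst of the endocrine islets, singled out after their values were seen, lay below the floor on all 6 arrays, and the raised members were exocrine genes. Amy1, the salivary and liver amylase gene by its symbol, moved the other way, from 9.67, 8.73 and 8.94 to 6.08, 6.13 and 5.77, at least 6.74-fold lower (adjusted p = 8.3e-06). Whether its probe tells it from the pancreatic amylase genes was not tested.

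Epithelial junction and keratin genes were higher in 26 of 38 cases and lower in 1, with a median log2 fold change of 1.29. The tight-junction protein Cldn2 read 5.85, 5.94 and 5.86 against 8.56, 8.40 and 8.54, at least 4.58-fold higher (adjusted p = 1.06e-08). Prom1, a membrane protein of epithelial microvilli, read 6.36, 6.58 and 6.66 against 10.08, 10.04 and 10.21, 11.9-fold higher (adjusted p = 4.26e-08). Krt18, a keratin of simple epithelia, and Spint1, an inhibitor of membrane proteases, were at least 4.85-fold and 2.25-fold higher. Cldn2, Prom1 and Spint1 each had a second probe that was not called. Tjp1, the junction scaffold that endothelium also uses, was 1.7-fold lower, a call lost in the fit of the 6 arrays alone (adjusted p = 0.0823) and under median scaling (0.265). In bulk RNA, more cells of a type and more RNA per cell cannot be told apart, here and for every gene group below.

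Smooth muscle genes were split. Actg2, the actin of visceral smooth muscle, read 5.93, 6.13 and 6.21 against 10.80, 10.60 and 11.18, at least 23.5-fold higher (adjusted p = 1.61e-07). Acta2 was 4.77-fold higher, with 3 of its 4 probes called, and the list had 7 of 20 genes higher. The pericyte genes Rgs5 and Pdgfrb were the members lower, at least 1.15-fold and 1.05-fold. Under median scaling 3 members of this list were higher and 0 lower.

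**Figure D3:**
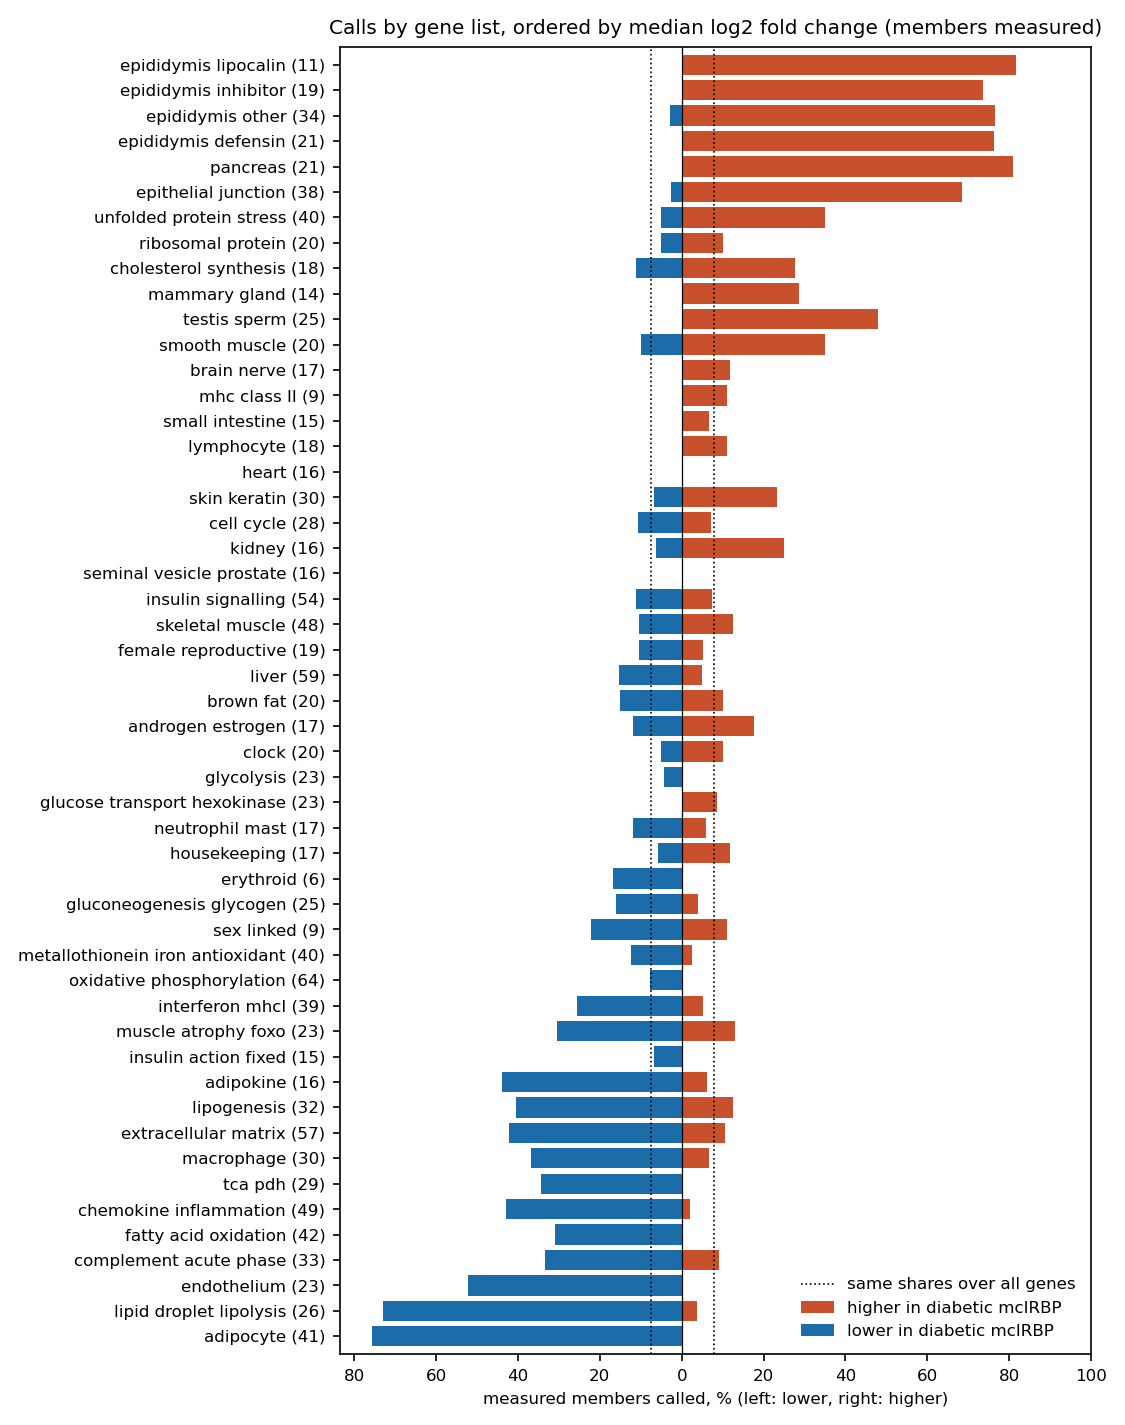
Share of measured members called higher (right, orange) or lower (left, blue) in diabetic mcIRBP against normal mcIRBP mice for each of the 51 gene lists, ordered by median log2 fold change, with the number of measured members in brackets and dotted lines at the shares over all genes, 7.9% and 7.5%. The epididymal, pancreatic and epithelial lists lie far to the right of the dotted line, and the adipocyte and lipid droplet lists far to the left.

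Genes of protein folding in the endoplasmic reticulum, which secretory cells use heavily, were higher in 14 of 40 cases and lower in 2, with a median of 0.27. Sdf2l1, a chaperone cofactor, read 6.35, 6.15 and 6.32 against 7.95, 7.90 and 8.32 (3.45-fold, adjusted p = 2.64e-06). Creld2, a stress-induced protein of the same compartment, was 4.83-fold higher, and Derl3, which helps degrade misfolded proteins, at least 2.16-fold. With median scaling 5 members were higher, and 7 in the fit of the 6 arrays alone. The lower members were Chac1, which degrades glutathione, and the transcription factor Atf5, 1.67-fold and 1.69-fold. Without diabetic replicate 2 neither was called (adjusted p = 0.0653 and 0.0704), and Atf5 was not called without normal replicate 1 (0.0546) or diabetic replicate 1 (0.0537) either.

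Adipocyte genes were lower in the diabetic mice. Of 41 measured genes 31 were lower, beside 7.5% of all genes, and none was higher, with a median log2 fold change of -1.77. Cidec, which fuses lipid droplets, read 12.32, 13.55 and 13.81 on the normal arrays and 8.59, 8.42 and 9.17 on the diabetic arrays, 22.6-fold lower (log2 fold change -4.50, SE 0.36, adjusted p = 2.53e-05). Adipoq, adiponectin, read 13.07, 13.81 and 14.01 against 10.28, 10.13 and 10.58, 9.86-fold lower (adjusted p = 1.16e-05). Lep, leptin, read 8.66, 9.83 and 8.60 against 5.89, 5.86 and 6.01, at least 6.35-fold lower (adjusted p = 3.9e-05). Adipoq stayed far above the floor on every diabetic array, while Lep was below it on all 3.

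Other genes of adipocytes were also lower. Rbp4, the retinol-binding protein, read 11.42, 12.04 and 11.21 against 7.35, 6.94 and 7.24, 20.8-fold lower (adjusted p = 1.57e-07). Cav1, the coat protein of caveolae, read 12.01, 11.78 and 12.34 against 8.48, 8.23 and 8.55, 12.3-fold lower (adjusted p = 4.78e-07). Pparg, the nuclear receptor that directs adipocyte differentiation, read 8.69, 8.85 and 7.99 against 6.09, 5.99 and 5.86, at least 4.43-fold lower (adjusted p = 1.19e-05). Among the 15 largest falls but not on the adipocyte list, Ghr, the growth hormone receptor, and Angptl4, an inhibitor of lipoprotein lipase, were 8.98-fold and 13.6-fold lower, though 2 further probes of Angptl4 were not called. Car3, carbonic anhydrase 3 of fat and slow muscle, was lower by both its probes, 5.98-fold by the brighter and 12.1-fold by the dimmer, which is the one among the 15 largest falls. Cfd, adipsin, read 13.81, 11.99 and 12.75 against 11.02, 10.86 and 10.81 (3.86-fold, adjusted p = 0.00933). The call of Cfd was lost under median scaling, cyclic loess and the fit of the 6 arrays alone. On median scaling 18 members of the adipocyte list were lower.

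Genes of lipid droplets and lipolysis fell with them, 19 of 26 lower and 1 higher, with a median of -1.61. Lpl, lipoprotein lipase, read 12.87, 12.83 and 12.50 against 9.44, 9.70 and 10.10, 7.91-fold lower (adjusted p = 2.03e-06). D930001I22Rik (now Fitm2), which helps bud droplets from the endoplasmic reticulum, was 8.45-fold lower, and S3-12 (now Plin4), a perilipin, 9.44-fold lower. Some of the lower genes, Lpl and S3-12 among them, were counted in the adipocyte list too, so the 2 counts are not separate. The higher member was Gyk (now Gk), glycerol kinase, which white fat holds at a low level, at 5.82, 6.33 and 6.27 against 6.81, 6.60 and 6.92 (1.55-fold, adjusted p = 0.00987), a call lost under median scaling and in the fit of the 6 arrays alone. On median scaling 10 members were lower, in the fit of the 6 arrays alone 12, and without diabetic replicate 3 the higher members were 3.

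Genes of lipid synthesis were lower in 13 of 32 cases and higher in 4. Some of the lower ones, Scd1, Acsl1 and Dgat2 among them, were counted in the adipocyte list too. Scd1, the stearoyl-CoA desaturase of fat and liver, read 14.01, 14.39 and 13.62 against 10.09, 9.86 and 10.78, 13.6-fold lower (adjusted p = 4.91e-06). Scd2, its paralog with a wide range of tissues, read 7.45, 7.07 and 6.56 against 10.24, 10.31 and 10.71, 10.5-fold higher (adjusted p = 6.26e-05). The normal arrays were thus high for Scd1 and low for Scd2, and neither gene's groups overlapped. Fads2, a desaturase of polyunsaturated fatty acids, was at least 2.18-fold higher, and Mid1ip1, an activator of acetyl-CoA carboxylase, 6.43-fold. Acsl1, which activates fatty acids, and Dgat2, which completes triglycerides, were 4.28-fold and 2.19-fold lower. With median scaling 6 genes of lipid synthesis were lower and 3 higher, and Dgat2 was not called. In cholesterol synthesis 5 of 18 genes were higher and 2 lower, but 2 and 0 under median scaling, 3 higher without normal replicate 3, diabetic replicate 1 or diabetic replicate 2, and 1 lower without any array but normal replicate 3. Fdps, farnesyl diphosphate synthase, read 7.10, 6.39 and 7.18 against 8.99, 8.96 and 9.37 (4.65-fold, adjusted p = 5.87e-05).

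Lists of mitochondrial pathways had calls only of lower genes in the main setting. The list of fatty acid oxidation also held genes of uptake, activation and regulation. Acsl1, Slc27a1, Pparg, Cd36, Fabp5 and Pdk4 were among its lower members. Of these Acsl1, Pparg and Cd36 were counted in the adipocyte list too. Of 42 fatty acid oxidation genes 13 were lower and none higher (median -0.56), of 29 genes of the citric acid cycle and pyruvate dehydrogenase 10 were lower and none higher (median -0.48), and of 64 subunits of oxidative phosphorylation 5 were lower, 7.81%, near the 7.5% of all genes. Slc27a1, a fatty acid transporter, read 8.23, 8.39 and 8.07 against 6.26, 6.17 and 6.39, 3.89-fold lower (adjusted p = 5.69e-06). Cs, citrate synthase, read 8.30, 9.29 and 8.97 against 7.52, 7.33 and 7.59, 2.59-fold lower (adjusted p = 0.00201). Idh3b, a subunit of isocitrate dehydrogenase, was 2-fold lower. With median scaling the counts were 4 of fatty acid oxidation, 0 of the citric acid cycle and 1 of oxidative phosphorylation, and in the fit of the 6 arrays alone 12, 5 and 2. The citric acid cycle had 6 lower genes without normal replicate 3 or diabetic replicate 3. Oxidative phosphorylation had 8 lower and 3 higher without normal replicate 1, and 3 lower without normal replicate 3. Single higher genes appeared in fatty acid oxidation under median scaling and without normal replicate 2, normal replicate 3 or diabetic replicate 3, and in oxidative phosphorylation without normal replicate 2 or diabetic replicate 2.

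Pck1, which fat uses for glyceroneogenesis and liver for gluconeogenesis, read 9.26, 10.35 and 10.45 against 6.72, 6.60 and 6.36, 11-fold lower (adjusted p = 2.06e-05). Both its probes were called. The other lower genes of glucose output and glycogen were Pgm2, a phosphoglucomutase (3.85-fold), Pygl, the liver form of glycogen phosphorylase (3.97-fold), and Ppp1r3d, a glycogen-targeting subunit of protein phosphatase that stayed at the floor. Slc37a4, the glucose 6-phosphate transporter, was 2.1-fold higher (adjusted p = 0.00399). The calls of Pygl, Ppp1r3d and Slc37a4 were lost under median scaling, and that of Pygl also in the fit of the 6 arrays alone. Glycolysis had 1 call in 23 genes, Pfkfb1, a phosphofructokinase-2 isoform, at 6.43, 6.28 and 6.21 against 5.86, 5.89 and 5.77.

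Endothelial genes were lower in 12 of 23 cases and higher in none, with a median of -0.86. Tek, the angiopoietin receptor, read 6.51, 6.60 and 6.47 against 5.89, 5.86 and 5.82, at least 1.12-fold lower (adjusted p = 6.97e-05). Ramp2, which turns a calcitonin-like receptor into the adrenomedullin receptor, read 7.94, 8.87 and 8.38 against 6.52, 6.43 and 6.43, 3.82-fold lower (adjusted p = 0.000129). Icam2 and the transcription factor Sox18 were at least 1.19-fold and 1.9-fold lower. Matrix genes were lower in 24 of 57 cases and higher in 6, with a median of -0.39. Ogn, a small proteoglycan, read 8.45, 8.59 and 8.30 against 6.92, 6.92 and 7.20, 2.7-fold lower (adjusted p = 3.73e-06), and Postn, periostin, was 3.72-fold lower. Ctgf (now Ccn2), a matricellular growth factor, was 1.58-fold higher. Tnxb had 3 probes, 1 called higher and 1 called lower, so no direction is given for it. With median scaling 3 endothelial and 4 matrix genes were lower, and 10 and 14 in the fit of the 6 arrays alone. Without diabetic replicate 1, 2 or 3 the lower matrix genes were 13, 13 and 15.

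Chemokines and inflammatory genes were lower in 21 of 49 cases and higher in 1. Ccl2, which recruits monocytes, read 9.61, 9.57 and 8.86 against 6.64, 6.51 and 6.51, 6.95-fold lower (adjusted p = 5.45e-06). Ccl9 and Cxcl4 (now Pf4) were 4.34-fold and 4.05-fold lower, and Cxcl5, which draws neutrophils, 4.25-fold. The higher member was Cx3cl1, the membrane-bound chemokine of epithelium and endothelium, at least 1.18-fold. Macrophage genes were lower in 11 of 30 cases, among them the mannose receptor Mrc1 (8.38, 8.91 and 8.57 against 6.75, 6.66 and 6.56, 3.89-fold) and the lectin Mgl1 (4.52-fold). Spp1, osteopontin, and Gpnmb, a glycoprotein of lipid-laden macrophages, were higher, at least 1.46-fold and 1.36-fold. Interferon and class I genes had 10 of 39 lower and 2 higher. Cxcl10 was 3.74-fold lower and Cxcl9 1.59-fold higher. B2m, the light chain of class I molecules, was 2.45-fold higher, while the class I gene H2-D1 was 3.15-fold lower. With median scaling 0 members of this list were higher. Under median scaling the lower counts were 8 chemokine, 3 macrophage and 4 interferon genes, and in the fit of the 6 arrays alone 13, 5 and 4. Without diabetic replicate 1 or diabetic replicate 2, 7 macrophage genes were lower.

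Complement and acute phase genes were lower in 11 of 33 cases and higher in 3. Of the 3 higher members, Clu and Lcn2 were counted in the epididymal lists too. The other, Hpx, stayed near the floor, at 5.77, 5.84 and 5.89 against 6.30, 6.26 and 6.01. Among the lower members, Orm1 was counted in the adipocyte list too. Clu, clusterin, which the epididymis secretes in quantity, read 8.76, 6.29 and 8.96 against 12.87, 12.65 and 13.40, 31.4-fold higher (adjusted p = 0.000299). Normal replicate 2 was well below the other normal arrays for Clu, and without it the fold was 17.6 (adjusted p = 1.3e-06). Orm1, orosomucoid, read 8.57, 9.82 and 9.37 against 6.04, 6.13 and 6.11, at least 7.42-fold lower (adjusted p = 0.000361), and C2 of complement was 3.31-fold lower. With median scaling 4 genes of this list were lower, and C2 was not called. Gpx1, the common glutathione peroxidase, was 6.53-fold lower (12.06, 13.02 and 12.41 against 9.85, 9.66 and 9.86) while the epididymal Gpx5 was raised. Gstm2, a glutathione transferase, read 7.74, 7.92 and 8.65 against 11.08, 11.24 and 10.08, 6.5-fold higher (adjusted p = 0.00444).

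Of 15 genes of insulin action measured, from receptor to glucose uptake, 1 was lower (6.67%, beside 7.5% of all genes) and none higher (beside 7.9%), so the lower share was near the background. The lower genes were 3 without normal replicate 2 and 0 without normal replicate 3, diabetic replicate 2 or diabetic replicate 3. Insr, the insulin receptor, read 6.04, 5.94 and 5.83 on the normal arrays and 5.78, 6.12 and 5.91 on the diabetic arrays, below the floor on all 6. Slc2a4, the insulin-responsive glucose transporter, read 6.72, 6.05 and 7.04 against 6.28, 6.26 and 6.19 (log2 fold change -0.36, SE 0.23, adjusted p = 0.385). Akt2 read 7.52, 6.47 and 7.54 against 6.88, 6.88 and 6.75 (-0.34, SE 0.25, adjusted p = 0.455). The groups overlapped for Insr, Slc2a4 and Akt2. Irs1, Igf1r, Srebf1 and Ppargc1a also lay below the floor on all 6 arrays.

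The 1 call of the list was Pdk4, the kinase that shuts off pyruvate dehydrogenase in fasting, at 7.14, 7.05 and 7.08 against 6.14, 6.03 and 5.74, at least 1.66-fold lower (adjusted p = 0.0291). Leaving out any 1 of the 6 arrays ended this call, with adjusted p between 0.0504 and 0.106, as did median scaling (0.132). Txnip, a brake on glucose uptake, read 11.60, 7.90 and 11.16 against 8.75, 8.65 and 7.06, and its groups overlapped through normal replicate 2 (log2 fold change -2.06, SE 0.83, adjusted p = 0.157), and without that array it was 9.38-fold lower (adjusted p = 0.00166). Hk2, hexokinase 2, was well measured and read 8.22, 8.65 and 8.13 against 8.13, 8.07 and 8.43 (-0.12, SE 0.14, adjusted p = 0.648). Pfkfb3, Pik3r1, Akt1, Tbc1d4 and Slc2a1 had log2 fold changes of -0.73, -0.39, -0.30, -0.22 and -0.29 with no call.

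In the wider list of insulin signalling 4 of 54 genes were higher (7.41%) and 6 lower (11.1%), near the 7.9% and 7.5% of all genes, and the median log2 fold change was -0.01. Grb10, an adaptor that restrains the insulin receptor, read 7.40, 8.0 and 8.10 against 6.52, 6.53 and 6.63, 2.42-fold lower (adjusted p = 0.000488), with 1 of its 2 probes called. Socs3, a suppressor of cytokine and insulin signalling, was 3.82-fold lower, and Eif4ebp1, a translation repressor under mTOR, 4.94-fold, though the latter was not called in the fit of the 6 arrays alone (adjusted p = 0.0548). Enpp1, a membrane phosphodiesterase that binds the insulin receptor, read 5.75, 5.84 and 5.86 against 7.88, 7.57 and 6.94, at least 2.24-fold higher (adjusted p = 0.000259). Under median scaling 2 genes of the list were lower. Foxo3, a transcription factor that Akt keeps out of the nucleus, read 6.15, 5.94 and 6.03 against 7.23, 7.74 and 8.11, at least 2.62-fold higher (adjusted p = 0.000422), with 1 of 2 probes called. In the list of muscle wasting and its FOXO targets 3 of 23 genes were higher (13%, beside 7.9% of all genes) and 7 lower (30.4%, beside 7.5%). Ddit4, an mTOR inhibitor induced by stress, was 3.03-fold higher and Gabarapl1, an autophagy protein, 3.87-fold lower. Fbxo32 had a log2 fold change of 2.04, the largest of the list, and 2.79 without diabetic replicate 1.

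Markers of the labelled tissue were low in both groups. Of 48 skeletal muscle genes, 25 lay below the floor on all 6 arrays, 2 lay above it on all 3 normal arrays and 6 on all 3 diabetic arrays. The mean of the list lay between 6.01 and 6.13 in the normal group and between 6.06 and 6.23 in the diabetic group. Of its members 6 were higher (12.5%, beside 7.9% of all genes) and 5 lower (10.4%, beside 7.5%). These counts were 4 and 1 under median scaling, 1 and 4 in the fit of the 6 arrays alone, and at least 3 each when 1 array was left out. Acta1, skeletal muscle actin, read 7.90, 8.96 and 8.02 against 5.86, 5.89 and 5.91, at least 3.82-fold lower (adjusted p = 0.00016). Ckm, muscle creatine kinase, read 6.36, 6.46 and 6.32 against 5.78, 5.84 and 5.86, at least 1.01-fold lower, and Mylpf, fast myosin light chain, was not called (adjusted p = 0.413). Of Acta1, Ckm and Mylpf none was above the floor on any diabetic array. Tpm2, a tropomyosin that smooth muscle shares, was 2.15-fold higher, a call lost under median scaling.

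The other marker lists moved with the groups as follows. The summed linear intensity of the adipocyte list lay between 82499 and 94915 in the normal group and between 10580 and 11585 in the diabetic group. Most liver markers were near the floor, with 38 of 59 genes below it on all 6 arrays. Above it lay 13 on all 3 normal arrays and 7 on all 3 diabetic arrays. Of the 59, 3 were higher (5.08%, beside 7.9% of all genes) and 9 lower (15.3%, beside 7.5%), but 3 lower under median scaling. Alb, albumin, read 7.31, 7.67 and 8.07 against 5.86, 5.81 and 5.82, at least 2.5-fold lower (adjusted p = 2.28e-05). Markers of heart had 0 of 16 genes called. The part that differences in tissue makeup had in the results on fat, epididymal, pancreatic, mitochondrial, vascular and immune genes was not tested.

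**Figure D4:**
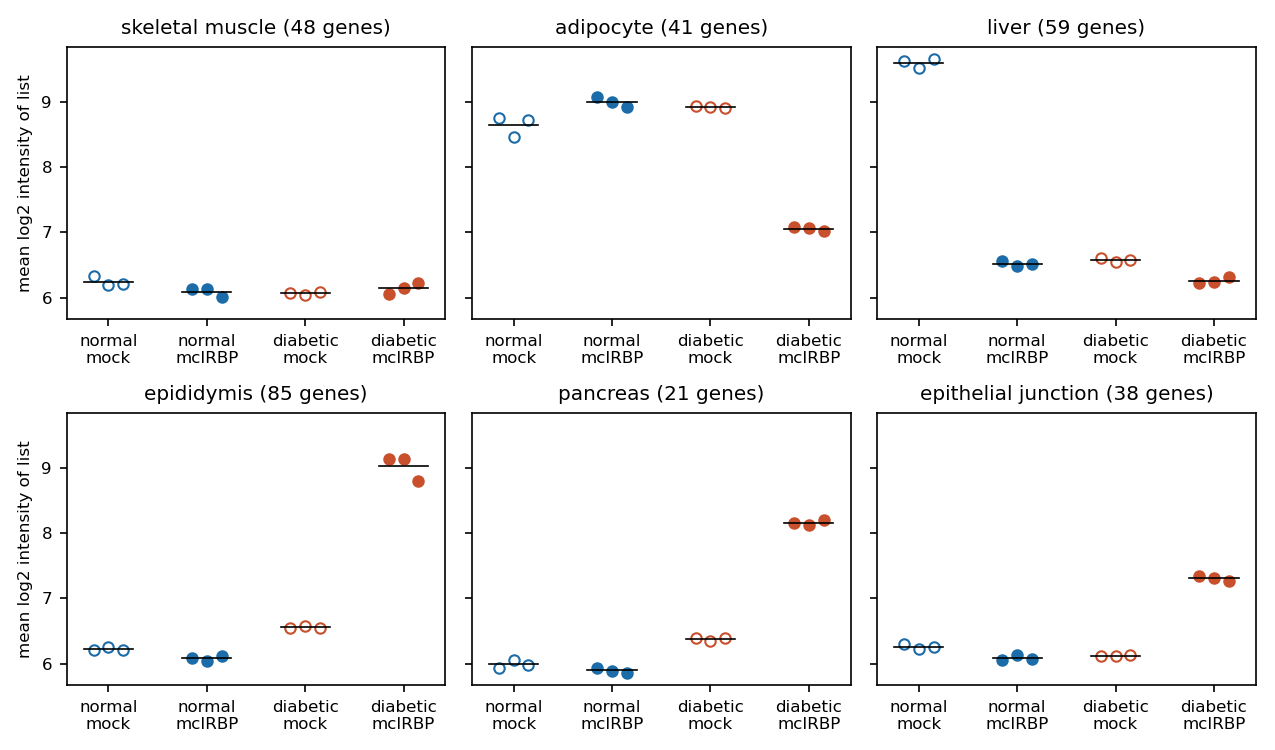
Mean log2 intensity of 6 marker lists on each of the 12 arrays, with open circles for mock arrays, filled circles for mcIRBP arrays and a bar for the group mean. Skeletal muscle lay between 6.01 and 6.33 on all arrays, adipocyte genes were at 7.02 to 7.09 on the diabetic mcIRBP arrays and at 8.47 or above on all others, and the epididymal, pancreatic and epithelial lists were highest on the diabetic mcIRBP arrays.

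Of 9 sex-linked genes 1 was higher (11.1%, beside 7.9% of all genes) and 2 were lower (22.2%, beside 7.5%). Eif2s3y, on the Y chromosome, read 5.77, 5.79 and 6.09 on the normal arrays, labelled female, and 7.23, 7.35 and 6.97 on the diabetic arrays, labelled male, at least 1.84-fold higher (adjusted p = 4.17e-05). The other Y-linked genes, Uty, Usp9y, Zfy1 and Jarid1d (now Kdm5d), lay below the floor on all 6 arrays. Eif2s3x, its partner on the X chromosome, was 2.15-fold lower and Ddx3x 1.88-fold lower. The call of Eif2s3x was lost under median scaling and in the fit of the 6 arrays alone. That of Ddx3x was lost under both and also without normal replicate 1 (adjusted p = 0.0809), normal replicate 2 (0.065), diabetic replicate 2 (0.0865) or diabetic replicate 3 (0.109).

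The state effect under mcIRBP was then set against that of the mock mice, which used the other 6 arrays. Diabetic mock against normal mock mice had 2039 called probes (9.7%), 1152 higher (5.48%) and 887 lower (4.22%). The difference between the state effects was called for 2360 probes with a symbol (11.2%), 1072 positive (5.1%) and 1288 negative (6.13%). Of the 85 measured epididymal genes, 19 were higher and 2 lower in diabetic mock mice, beside 6.01% and 4.5% of all genes. The difference was positive and called for 62 of the 85, beside 5.88% of all genes, and negative for 1, beside 6.72%. The mcIRBP arrays enter this difference too, so it is no separate evidence that these genes were raised. Defb20 was higher by 2.08 on the log2 scale in diabetic mock mice (adjusted p = 3.23e-07) and the difference was 6.01 (adjusted p = 2.16e-09). The mean of the 85 epididymal genes was 6.55, 6.58 and 6.55 on the diabetic mock arrays, between that of the normal mcIRBP arrays (6.09, 6.04 and 6.11) and that of the diabetic mcIRBP arrays (9.14, 9.15 and 8.81). The pancreatic list had the same order, at 6.39, 6.34 and 6.39 on the diabetic mock arrays.

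The adipocyte genes did not follow that order. Their mean was 8.95, 8.93 and 8.92 on the diabetic mock arrays, close to the 9.08, 9.0 and 8.93 of the normal mcIRBP arrays, and among the 4 groups only the diabetic mcIRBP arrays were low. The difference between the state effects was negative and called for 29 of 41 adipocyte genes, beside 6.72% of all genes. Adipoq was higher by 0.92 in diabetic mock mice (adjusted p = 0.0407) and lower by 3.30 in diabetic mcIRBP mice, a difference of -4.23 (adjusted p = 2.04e-05). Lep was lower in both settings, with -1.74 in mock mice (adjusted p = 0.00311) and a difference of -1.37 (adjusted p = 0.0499). Pdk4 was higher by 2.15 in diabetic mock mice (adjusted p = 0.00115) and the difference was -3.27 (adjusted p = 0.000485). Ddit4 was higher in both, by 2.05 in mock mice (adjusted p = 6.18e-07), with a difference of -0.46 (adjusted p = 0.0963).

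Some of the largest differences came from the mock arrays alone. Of 59 liver genes 50 were lower in diabetic mock than normal mock mice, beside 4.5% of all genes, and the mean of the list was 9.63, 9.52 and 9.66 on the normal mock arrays against 6.49 to 6.56 on the normal mcIRBP arrays. Ttr, transthyretin, was below the floor on all 6 mcIRBP arrays, and its difference of 6.94 rested on a state effect of -7.09 in the mock mice. The positive differences of liver genes are thus mostly values of the mock comparison, and the mcIRBP groups held little signal for most of these genes.

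**Figure D5:**
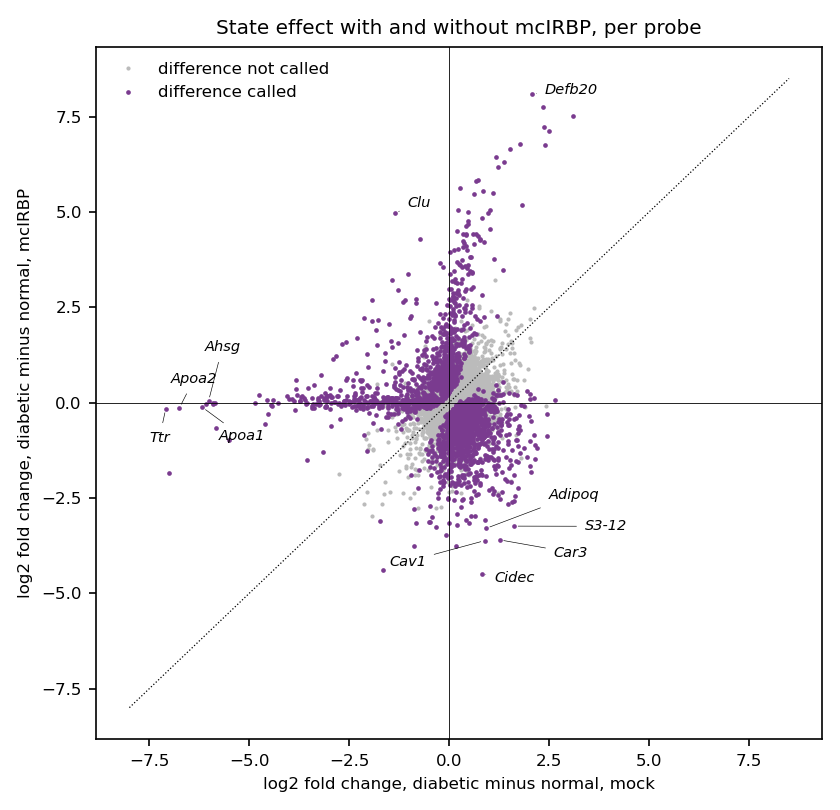
Log2 fold change of diabetic against normal mice under mcIRBP (vertical axis) and under mock (horizontal axis), with a point for each probe with a symbol, purple where the difference between the 2 effects was called and a dotted line where they are equal. Defb20 lies high above the line, Cidec and Adipoq far below it, and Ttr, Apoa1, Apoa2 and Ahsg lie at the left near 0 on the vertical axis.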

How the data were processed

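Single-colour (Cy5) arrays of 12 samples in 4 groups of 3 were used. The deposited files hold 2 intensity columns, raw and normalized. Per the submitters' processing notes limma was used, with no version, and no source used here gives a background step. The deposited normalized intensity differed in scale between disease states (medians 62.9 to 63.2 and 40.0 to 41.0), so the raw intensity was used. Raw medians split by state too, at 57 to 95 on the normal and 39 to 47 on the diabetic arrays. The level of the raw intensity and disease state thus cannot be told apart either. The raw intensity was corrected by normexp (offset 50), quantile normalized over all 12 arrays and taken to log2 with limma 3.58.1 in R 4.3.3. Each group had its own mean in the model (8 residual degrees of freedom). Benjamini-Hochberg adjustment ran over 29922 probes at 0.05, and the procedure was tested on simulated data. A list gene is its brightest probe. Named genes were the 15 largest rises and falls without overlap, up to 4 called members of each list and direction by lowest p, all genes of insulin action, sex linkage, defensins and lipocalins, 9 defining markers, and the 5 largest differences in each direction. The genes and lists were chosen with earlier results of these data known. Symbols came from the platform annotation (16633 of 16675 found in RefSeq). Deviations of same-numbered arrays from their group means correlated at -0.024, -0.134 and -0.13. No pairing by number was seen, though 3 arrays per group cannot exclude one. The number of arrays limits the precision.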

Additional observations from a re-analysis of the deposited data

Results flagged for a closer look

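The state effect, diabetic minus normal, differed between mcIRBP and mock mice for 2360 probes with a symbol by limma's test of the difference at an adjusted p under 0.05. The largest positive differences on the log2 scale were 6.94 for Ttr, 6.61 for Apoa2, 6.33 for Clu, 6.07 for Ahsg and 6.06 for Apoa1. For Ttr, Apoa2, Ahsg and Apoa1 the state effect in mock mice was -7.09, -6.75, -6.02 and -6.18, and Ttr, Apoa2 and Apoa1 lay below the floor on all 6 mcIRBP arrays. Clu differed from them, with a mock effect of -1.36 that was not called (adjusted p = 0.164) and an effect of 4.97 under mcIRBP. Without normal mcIRBP replicate 2, which was low for Clu, its difference was 5.51 (adjusted p = 1.43e-06). The largest negative differences were -5.31 for Cidec, -4.86 for Car3, -4.86 for S3-12, -4.51 for Cav1 and -4.23 for Adipoq. Under mcIRBP the log2 fold changes of these genes were -4.50, -3.60, -3.24, -3.62 and -3.30, in the same order. In mock mice the effects were 0.81, 1.26, 1.62, 0.89 and 0.92, of which those of Cav1 and Adipoq were called. For Car3 these values are from the dimmer of its probes. The brighter gave a mock effect of 1.62 that was called (adjusted p = 0.0217), an effect of -2.58 under mcIRBP and a difference of -4.20.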

How the results depend on the processing

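Calls of the comparison (higher and lower) were 1445 and 1469. They were 895 and 236 under median scaling and 863 and 890 in the fit of the 6 arrays alone. Leaving out 1 mcIRBP array gave 1006 to 1396 higher and 886 to 1606 lower. The lower calls moved most without diabetic replicate 2 (886) and diabetic replicate 3 (975). With the replicate number as a block, though no pairing by number was seen, 1230 were higher and 1281 lower, and for the difference of effects 970 and 1064. That difference had 1072 positive and 1288 negative calls, 4215 of the latter under median scaling. Leaving out 1 array of the 12 gave 833 to 1363 positive and 794 to 1550 negative, and the negative calls fell to 848, 794 and 856 without diabetic mock replicate 1, 2 or 3. Cyclic loess, no background correction, offset 16, dim probes left out, array weights and a trended robust prior kept every count of the comparison within 1.5 times. Of 224 called genes and probes named, 127 kept the call under all 15 alternatives, the 15 largest rises and falls among them, and 85 lost it under median scaling. Mt2 turned from -0.77 to 0.22 (adjusted p = 0.722) under cyclic loess, and the cause was not tested. The high spread among normal mcIRBP arrays, with a mean variance of 0.0715 against 0.0294 among diabetic ones, and the 11466 probes below the floor on all 6 arrays limit what can be called.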
